A study of Mus musculus with 24 samples.

Results

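The claudins and tight junction proteins described here are 9 genes of the mammary epithelium and its vessels: the claudins Cldn1, Cldn3, Cldn4, Cldn5, Cldn7 and Cldn8, the occludin gene Ocln, and the scaffold genes Tjp1 (ZO-1) and Tjp3 (ZO-3). They were taken by symbol, through the Ensembl identifiers of GENCODE M1, from a table of read counts for 37991 genes, and all 9 passed the filter on low counts that left 14918 genes for testing. RNA came from mammary tumors of female PyMT mice, F1 animals of the FVB/N strain with 1 copy of the MMTV-PyVT transgene. Normal mammary glands of FVB females without the transgene were the controls. For its carcinoma samples the paper reports mainly tumor cells by pathology, with few stromal and muscle cells and rare inflammatory ones. PyMT mice carry the middle T antigen of polyoma virus behind the MMTV promoter, which drives it mainly in mammary epithelium, so the tumors in these glands are epithelial. Glands or tumors of 3 PyMT and 3 FVB mice were sequenced at each of week 6 (hyperplasia in PyMT), week 8 (adenoma/MIN), week 10 (early carcinoma) and week 12 (late carcinoma), which gave 24 samples in 8 groups. The paper reports that litter contributed slightly to a principal component of its samples. No source used here ties PyMT and FVB samples to common litters, and p-values measure the spread between these samples.

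Tight junctions seal the space between neighbouring epithelial or endothelial cells near their apical side. Claudins are small proteins with 4 membrane spans that meet across the gap and set which ions and solutes pass, occludin is a further membrane protein of the same strands, and the ZO scaffolds tie both to the actin skeleton. In the mammary gland, luminal epithelial cells carry most of these junctions, and Cldn5 is known chiefly from the endothelium of blood vessels.

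Values are normalized counts, that is counts divided by DESeq2's size factor of the library, unless another scale is named. Totals ran from 6969375 to 13516601 counts per sample. In 13 of 24 libraries the number of genes by count peaked at 8 to 25 counts in place of 1, which makes low values coarse, and 4 FVB libraries (week 6 replicates 1 and 2, week 10 replicate 3 and week 12 replicate 1) had over 100000 normalized counts of 8 skeletal muscle markers. The 6 luminal epithelial markers Epcam, Cdh1, Krt8, Krt18, Krt7 and Krt19 were above 0 in every library. Their summed level ran from 17400 to 33910 in PyMT and from 3901 to 18080 in FVB. That of 7 basal epithelial markers ran from 1278 to 5911 and from 4483 to 15680, and that of 6 leukocyte markers from 979 to 2049 and from 1070.0 to 2779. Keratinocyte markers were high in FVB week 6 replicate 1 (2485) and PyMT week 12 replicate 2 (2535). In bulk tissue, fewer cells of a type and less RNA per cell cannot be told apart.

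Cldn3 and Cldn4 are neighbours on chromosome 5 (mm9), Cldn4 at 135420996 to 135422804 on the minus strand and Cldn3 at 135462084 to 135463342 on the plus strand, with 39280 bp between them. On the same build, Cldn5 lies on chromosome 16 at 18776940 to 18778353 (plus strand), Cldn1 on chromosome 16 at 26356728 to 26371927, Cldn8 on chromosome 16 at 88561073 to 88563428, Ocln on chromosome 13 at 101266462 to 101322673, Tjp1 on chromosome 7 at 72441051 to 72516125 and Tjp3 on chromosome 10 at 80735952 to 80754012 (all minus strand), and Cldn7 on chromosome 11 at 69778281 to 69781387 (plus strand). The proximal promoters of Cldn3 and Cldn4, of Cldn1, which had the largest increase, and of Cldn5, which was lower in PyMT, are shown because these 4 genes mark the different patterns among the members. Each is the 120 bases before the RefSeq start on GRCm38.p6, written in the direction of transcription: Cldn1 at chr16:26371840-26371959 (minus strand), Cldn3 at chr5:134986094-134986213 (plus strand), Cldn4 at chr5:134946935-134947054 (minus strand) and Cldn5 at chr16:18776727-18776846 (plus strand). Capitals mark matches on either strand to 3 motifs: the E-box CACCTG bound by Snail and Zeb factors, the grainyhead motif AACNNGTT and the GC box GGGCGG.
Cldn1: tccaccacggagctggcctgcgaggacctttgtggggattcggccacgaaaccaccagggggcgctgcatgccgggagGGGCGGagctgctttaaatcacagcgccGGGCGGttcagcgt
Cldn3: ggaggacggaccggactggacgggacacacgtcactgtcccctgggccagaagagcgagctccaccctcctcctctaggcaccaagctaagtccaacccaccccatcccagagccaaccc
Cldn4: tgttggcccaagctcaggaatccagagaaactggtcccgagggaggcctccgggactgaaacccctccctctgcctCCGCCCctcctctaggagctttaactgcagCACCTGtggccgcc
Cldn5: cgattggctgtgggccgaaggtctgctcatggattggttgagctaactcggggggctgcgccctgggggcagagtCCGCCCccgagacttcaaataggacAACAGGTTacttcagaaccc

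Counted back from the start, Cldn1 held GC boxes at -42 to -37 and -14 to -9. Cldn4 held a GC box at -44 to -39 and an E-box at -14 to -9. Cldn5 held a GC box at -45 to -40 and the grainyhead match AACAGGTT at -20 to -13, which overlaps no other match. The Cldn3 window shown had no match, and over 250 bases its promoter had a GC box at -236 to -231. Over all 27025 genes with such a window of 250 bases, 17.1% held the E-box, 3.63% the grainyhead motif and 32.9% the GC box. A match is a description of these letters only. RefSeq promoters were matched for 8 of the 9 members, the exception being Cldn8. Among the members not shown, the E-box was also found within 250 bases in a promoter of Cldn7, of Ocln and of Tjp3. The GC box was found in a promoter of Cldn7, of Ocln and of Tjp1.

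The genotypes were compared week by week, 3 samples against 3, with the quasi-likelihood test of edgeR and p-values adjusted by Benjamini-Hochberg over all 14918 genes, and a gene was called when its adjusted p was under 0.05 and its fold change above 2. Of the 9 members, 3 were called higher in PyMT (Cldn1, Cldn4 and Ocln) and none lower at week 6, beside 10% of all genes called, 3.58% of them higher and 6.46% lower. At week 8, 4 were called higher (Cldn1, Cldn3, Cldn7 and Ocln) and 1 lower (Cldn5), beside 9.95% of all genes (3.57% higher and 6.37% lower). Weeks 10 and 12 gave the same 5 genes in the same directions. All genes were called at 13.9% at week 10 (4.83% higher and 9.09% lower) and at 20.7% at week 12 (7.75% higher and 13% lower). The median log2 fold change of the members was 1.28, 1.15, 1.46 and 0.99 at weeks 6, 8, 10 and 12, and that of all tested genes was -0.08, -0.04, 0.01 and 0.00.

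A fit of all 24 samples with week as a term gave the difference with the weeks pooled. The same 5 members were called, Cldn1, Cldn3, Cldn7 and Ocln higher and Cldn5 lower, beside 25.7% of all genes (8.51% higher and 17.2% lower). The members' median log2 fold change was 0.93, against -0.03 for all genes. With libraries scaled by their total alone, the median of all genes rose to 0.26, and the 1269 higher and 2571 lower genes became 2050 and 2002. All 5 pooled member calls were also made under that scaling.

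**Figure D1:**
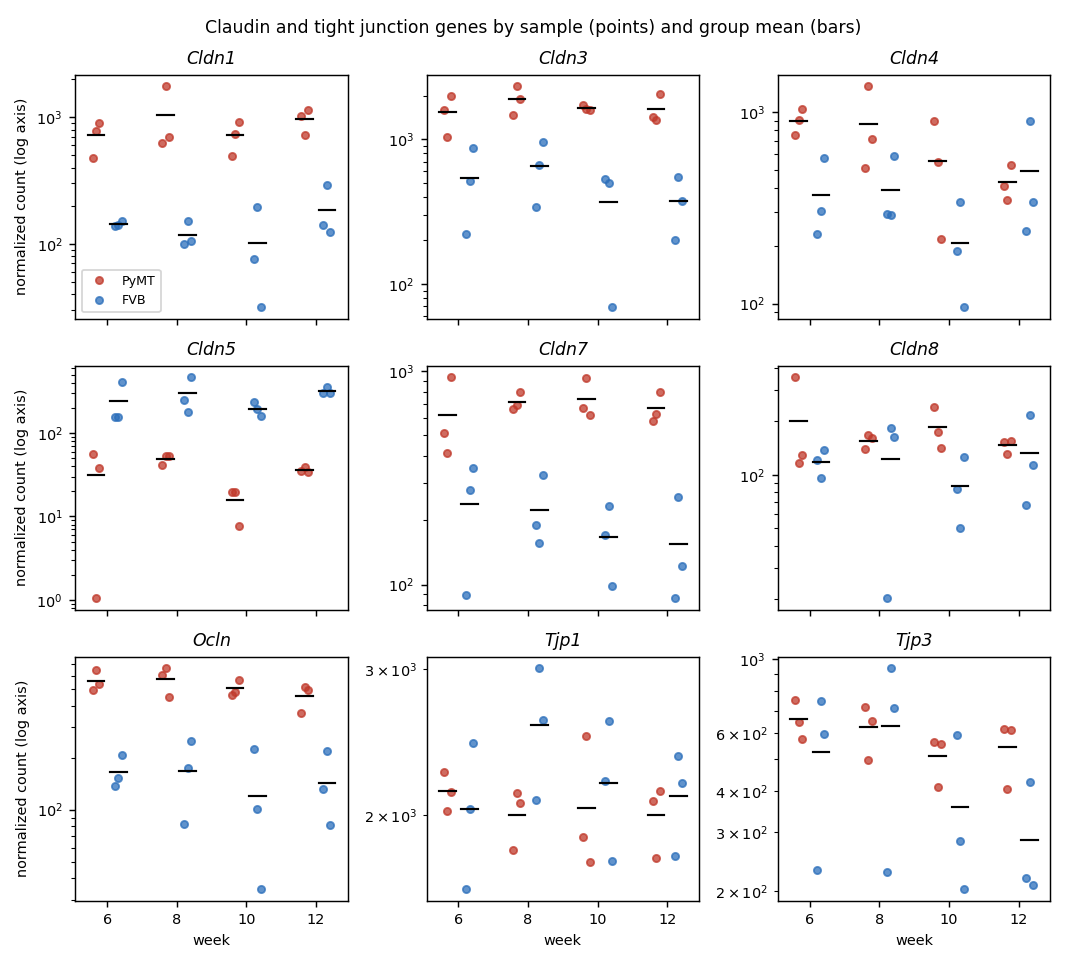
Normalized count of each of the 9 genes in each of the 24 samples (points, log axis) by week, PyMT in red and FVB in blue, with the mean of each group of 3 as a bar. For Cldn1, Cldn3, Cldn7 and Ocln the 12 PyMT points lie above the 12 FVB points, for Cldn5 they lie below, and the other 4 genes overlap.

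Cldn1, a barrier-forming claudin, had the largest increase of the members. At week 6 the PyMT samples had 478, 785 and 904 normalized counts and the FVB samples 138, 142 and 152. At week 8 the PyMT values were 626, 1788 and 697 and the FVB values 99.7, 150.0 and 105. PyMT week 8 replicate 2 was the highest of the 24 samples, and the lowest PyMT sample was above the highest FVB sample at both weeks. At week 10 the PyMT samples had 492, 746 and 925 and the FVB samples 76.2, 196 and 31.3. At week 12 they had 1024, 729.7 and 1155 against 141, 292 and 124. The highest FVB value of all, in week 12 replicate 2, stayed below the lowest PyMT value. The log2 fold change was 2.32 ± 0.28 (SE), 3.12 ± 0.44, 2.87 ± 0.61 and 2.43 ± 0.35 at weeks 6, 8, 10 and 12, and the adjusted p from edgeR was 0.00266, 0.00733, 0.0168 and 0.0018 in that order. The week 10 call was lost without FVB replicate 1 (log2 fold change 2.69, adjusted p = 0.0674), PyMT replicate 2 (2.86, 0.0573) or PyMT replicate 3 (2.62, 0.0621).

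Cldn3 was the most abundant member in RNA per kilobase of exon in both genotypes, at 1331 ± 280.1 (SD, n = 12) normalized counts per kb in PyMT and 384 ± 211 in FVB. The PyMT samples of week 6 had 1587, 1042 and 1993 normalized counts and the FVB samples 221, 516 and 872. At week 8 they had 1471, 2346 and 1895 against 339, 669 and 960.5. The groups did not overlap at either week, although FVB week 8 replicate 3 came near the lowest PyMT sample of week 6. At week 10 the PyMT samples lay close together at 1731, 1605 and 1586, and the FVB samples had 531, 497 and 68.9. At week 12 they had 1431, 1364 and 2057 against 200.4, 549.5 and 373. FVB week 10 replicate 3, the lowest sample, is rich in muscle markers and had the lowest luminal marker sum. For Cldn3 the log2 fold change was 1.53 ± 0.46 (adjusted p = 0.0694), 1.54 ± 0.37 (0.0358), 2.20 ± 0.62 (0.0483) and 2.16 ± 0.36 (0.00336) at weeks 6, 8, 10 and 12 in edgeR's quasi-likelihood test. The call was lost at week 8 without PyMT replicate 1, 2 or 3 or FVB replicate 2 (log2 fold changes 1.69, 1.40, 1.53 and 1.56, adjusted p = 0.0772, 0.0866, 0.0928 and 0.113) and in a fit of all 24 samples (1.54, adjusted p = 0.051), at week 10 without any sample but FVB replicate 3 (2.14 to 2.57, adjusted p = 0.0747 to 0.135) and with library total only (2.38, adjusted p = 0.0612), and gained at week 6 without FVB replicate 3 (2.10, adjusted p = 0.0273). Exons of Cldn3 overlap the antisense gene Wbscr25, and the strand setting of the counting is not given in the sources used here, so reads of the pair cannot be told apart.

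Cldn7, a claudin found along the sides of epithelial cells as well as at the junction, followed Cldn3. In week 6 samples, PyMT had 515.5, 412 and 942 normalized counts and FVB 89.2, 277 and 351. At week 8 they had 664, 697 and 796 against 189, 156 and 324. The genotypes were apart at both weeks, by the smallest margin at week 6, where PyMT replicate 2 was the lowest PyMT sample. At week 10 the values were 670.0, 933 and 625 against 170.3, 234.5 and 98.6. At week 12 they were 585, 632.5 and 797 against 86.1, 258 and 122.5. No FVB sample reached the lowest PyMT sample. For Cldn7 the log2 fold change was 1.39 ± 0.51 (adjusted p = 0.121), 1.70 ± 0.31 (0.0146), 2.18 ± 0.35 (0.00498) and 2.16 ± 0.39 (0.00499) by edgeR's quasi-likelihood test. The week 8 call was lost without PyMT replicate 1 or 3 or FVB replicate 2 (log2 fold changes 1.75, 1.60 and 1.5, adjusted p = 0.0551, 0.0503 and 0.0505).

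Ocln, which encodes occludin, was called at all 4 weeks. PyMT samples had 493, 649 and 533 normalized counts at week 6 and FVB samples 137, 153.5 and 206. At week 8 they had 606, 667 and 450.5 against 82.0, 173 and 249. The groups did not overlap at either week. At week 10 they had 465, 484 and 565.5 against 224, 101 and 34.4, and at week 12 they had 366, 516 and 492 against 132, 218 and 80.9. The lowest PyMT sample, week 12 replicate 1, was above the highest FVB sample, week 8 replicate 3. Occludin had a log2 fold change of 1.75 ± 0.25 (adjusted p = 0.0045), 1.78 ± 0.40 (0.0284), 2.10 ± 0.59 (0.0472) and 1.72 ± 0.36 (0.00973) by edgeR's quasi-likelihood test. The call was lost at week 8 without PyMT replicate 1, 2 or 3 or FVB replicate 2 (log2 fold changes 1.73, 1.69, 1.91 and 1.80, adjusted p = 0.0982, 0.0675, 0.0583 and 0.0926) and at week 10 without PyMT replicate 1, 2 or 3 or FVB replicate 2 (2.14, 2.14, 1.99 and 1.97, adjusted p = 0.123, 0.116, 0.134 and 0.12), and there also with library total only (2.29, adjusted p = 0.0564).

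Over all weeks, the log2 fold changes of these 4 genes were 2.67 ± 0.25 for Cldn1 (adjusted p = 2.84e-09), 1.85 ± 0.27 for Cldn3 (3.09e-06), 1.84 ± 0.22 for Cldn7 (2.6e-07) and 1.82 ± 0.22 for Ocln (2.52e-07) by edgeR's quasi-likelihood test. For each, the 12 PyMT samples were above the 12 FVB samples. Without the 4 muscle-rich libraries the values were 2.60, 1.55, 1.66 and 1.68, all called. Without the 13 libraries of coarse low counts they were 2.80, 1.86, 2.12 and 1.79. Those libraries include every PyMT sample of week 6 and every FVB sample of week 10, and FVB week 8 keeps replicate 3 only. That comparison of the genotypes therefore rests on weeks 8 and 12. Part of the luminal marker list moved with Cldn1, Cldn3, Cldn7 and Ocln. Of its 6 genes, 4 were called higher (Epcam 2.04, Krt8 1.72, Krt18 1.49 and Cdh1 1.33), beside 8.51% of all genes. Krt7 (-0.01) and Krt19 (-0.59) were not called.

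Cldn4, a claudin of luminal epithelium, was called higher at week 6 and at no later week in the fits of single weeks, and its groups overlapped at each later week. Its PyMT samples of week 6 had 754, 907 and 1031 normalized counts and the FVB samples 232, 303 and 571. At week 8 they had 508.5, 1369 and 723 against 293, 291 and 586.5. FVB week 8 replicate 3 already lay above PyMT week 8 replicate 1. At week 10 the PyMT samples spread from 898 over 546 to 217, and the FVB samples had 188, 339 and 95.5. At week 12 they had 412, 347 and 525 against 238, 893.5 and 339. FVB week 12 replicate 2 was above all PyMT samples of its week, and that library also had the highest luminal marker sum of the FVB samples, 18080. Its part in the result was not tested beyond leaving it out.

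The Cldn4 log2 fold change at weeks 6, 8, 10 and 12 was 1.28 ± 0.33 (adjusted p = 0.0416), 1.15 ± 0.42 (0.116), 1.46 ± 0.59 (0.14) and -0.15 ± 0.45 (0.842), with p adjusted in edgeR. The week 6 call was lost without any of the 6 samples except FVB replicate 3, with adjusted p from 0.0729 to 0.134 and log2 fold changes from 1.06 to 1.43, and in a fit of all 24 samples (1.28, adjusted p = 0.116). Cldn4 was also called at week 8 with no filter on low counts (1.16, adjusted p = 0.0305) and at week 10 with a replicate block (1.43, adjusted p = 0.0452). Without FVB week 12 replicate 2 the week 12 value was 0.58 (adjusted p = 0.138). Pooled over weeks it was 0.93 ± 0.29 (adjusted p = 0.0087), under the 2-fold limit, and it passed that limit on leaving out any of 7 samples, up to 1.14 without FVB week 12 replicate 2, and with libraries scaled by their total alone (1.17, adjusted p = 0.00294). Without the muscle-rich libraries it fell to 0.65 (adjusted p = 0.0801 in edgeR). Without the libraries of coarse low counts it was 0.42. No PyMT library of week 6 and no FVB library of week 10 was left there, so that value rests on weeks 8 and 12. Within PyMT the week 12 samples were lower than the week 6 samples without overlap, by a log2 fold change of -1.06 ± 0.53 (unadjusted p = 0.0593, adjusted p = 0.776). Between weeks 6 and 12 the gap between the genotypes changed by -1.45 ± 0.75 (unadjusted p = 0.0678 by edgeR's quasi-likelihood test).

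Cldn8, a claudin best known from tight renal and glandular epithelia, was among the less abundant members, with 116 to 356 normalized counts in PyMT (median 154) and 20.2 to 217 in FVB (median 118). It was called at no week. Its log2 fold change was 0.75 ± 0.49, 0.36 ± 0.69, 1.16 ± 0.48 and 0.19 ± 0.43 at weeks 6, 8, 10 and 12, and 0.60 ± 0.28 with the weeks pooled (adjusted p = 0.0773, edgeR's quasi-likelihood test). Week 10 was the week at which the groups did not overlap, with PyMT at 141 to 240.2 and FVB at 50.1 to 125. Without FVB week 10 replicate 3 the week 10 value became 1.51 with an adjusted p of 0.0494.

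Cldn5, the main claudin of blood vessel endothelium, lay below FVB in every PyMT sample at each week and was called lower at weeks 8, 10 and 12. The week 6 PyMT samples had 56.1, 1.04 and 38.0 normalized counts and the FVB samples 158, 157 and 412. At week 8 they had 41.0, 52.5 and 53.5 against 246, 180.3 and 473.5. PyMT week 6 replicate 2, at about 1 normalized count, stood far below its group. In its library the number of genes by count peaked at 25 counts, and whether this bears on the low value was not tested. At week 10 they had 19.6, 19.9 and 7.68 against 238, 192 and 159.6, and at week 12 they had 35.0, 39.5 and 34.2 against 299, 352 and 301. The highest PyMT sample was below the lowest FVB sample by a wide margin.

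The Cldn5 log2 fold change at weeks 6, 8, 10 and 12 was -2.90 ± 0.97 (adjusted p = 0.0956), -2.60 ± 0.44 (0.0122), -3.60 ± 0.58 (0.00512) and -3.08 ± 0.27 (0.000296), with p adjusted in edgeR. Without PyMT week 6 replicate 2 the week 6 value was -2.32 and was called (adjusted p = 0.0445), and the week 8 call was lost without PyMT replicate 1 (-2.49, adjusted p = 0.0599). Pooled over weeks it was -3.04 ± 0.33 (adjusted p = 4.36e-08) and -3.19 without the muscle-rich libraries. Without the libraries of coarse low counts it was -3.10, a value that rests on weeks 8 and 12. The endothelial markers moved with Cldn5: 8 of 8 (Pecam1, Cdh5, Kdr, Tek, Tie1, Emcn, Vwf and Eng) were called lower (median log2 fold change -2.29), beside 17.2% of all genes. None of these markers was at 0 in any library. Their summed level was 821 to 2557 in PyMT and 6185 to 10700 in FVB. Relative to the mean log2 level of these 8 markers in the same sample, the log2 level of Cldn5 differed by -0.83 (exact two-sided permutation within weeks, p = 0.0402), with 5 of 12 PyMT samples below all FVB samples and 1 above them. Without PyMT week 6 replicate 2 that difference was -0.43 (exact permutation p = 0.0782), and p was over 0.05 on leaving out 10 of the 24 samples in turn (highest p = 0.103).

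**Figure D2:**
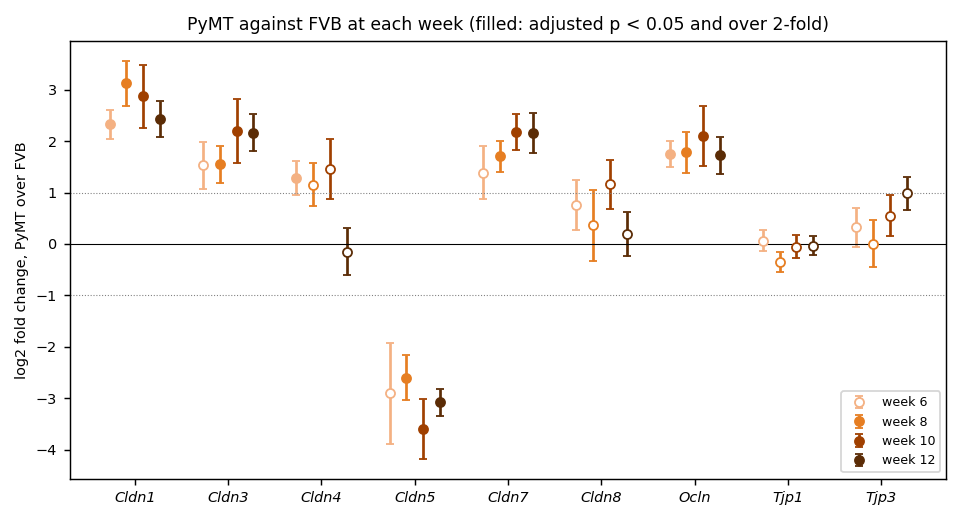
Log2 fold change of PyMT over FVB (points) with its standard error (bars) for each of the 9 genes at weeks 6, 8, 10 and 12, light to dark; filled points were called. Cldn1 and Ocln are filled at all 4 weeks, Cldn4 is filled at week 6 and lies near 0 at week 12, and Tjp1 lies near 0 throughout.

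The scaffold genes showed no called difference at any week. Tjp1, which encodes ZO-1, was the steadiest member, with 1756 to 2487 normalized counts in PyMT, against 1626 to 3010.0 in FVB. Its coefficient of variation over 12 samples was 10.4% in PyMT and 18.1% in FVB, the lowest of the 9 genes in PyMT and in FVB. For Tjp1 the log2 fold change was 0.07 ± 0.20, -0.35 ± 0.20, -0.05 ± 0.22 and -0.03 ± 0.18 at weeks 6, 8, 10 and 12 and -0.10 ± 0.09 with the weeks pooled (adjusted p = 0.383, edgeR's quasi-likelihood test). With libraries scaled by their total alone the pooled value was 0.17 (adjusted p = 0.307).

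Tjp3, which encodes the epithelial scaffold ZO-3, had 407 to 752 normalized counts in PyMT and 202 to 943 in FVB. FVB values fell into a wide range within most weeks, such as 228, 943 and 712 at week 8. For Tjp3 the log2 fold change was 0.32 ± 0.38, 0.00 ± 0.46, 0.55 ± 0.41 and 0.99 ± 0.32 in the order of the weeks, the last with an adjusted p of 0.0513 in edgeR's quasi-likelihood test. At that week PyMT samples had 618, 407 and 611 and FVB samples 218, 427 and 208, and without FVB replicate 2 the value was 1.36 (adjusted p = 0.00557). Pooled over weeks it was 0.45 ± 0.23 (adjusted p = 0.0981). Exons of Tjp3 overlap the antisense gene Apba3, with the same uncertainty as for Cldn3.

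The design also asks whether the difference between the genotypes changed as tumors progressed. None of the 9 members was called in the change of the gap between PyMT and FVB from week 6 to week 12 or from week 8 to week 10, in PyMT week 12 against week 6, or in FVB week 12 against week 6. These 4 comparisons use samples in common. In edgeR's quasi-likelihood test no member had an unadjusted p under 0.05 in any of them, and with DESeq2's Wald test 1 did, Cldn4 in PyMT week 12 against week 6 (unadjusted p = 0.0455). Over all genes, edgeR called 0, 1, 0 and 0 (0%, 0.0067%, 0% and 0%), DESeq2 called 11, 7, 97 and 19, and 691, 533, 1004 and 625 had an unadjusted p under 0.05 in edgeR.

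To set the members against the epithelial content of each sample, the mean log2 level of the 6 luminal markers was subtracted from the log2 level of each member (1 added before the log), and the difference between genotypes was tested by exact two-sided permutation within weeks, with 160000 arrangements and a smallest possible p of 1.25e-05. The 9 p-values are unadjusted. Relative to these markers, Cldn1 was higher in PyMT by 1.65 (p = 1.25e-05, 12 of 12 PyMT samples above all FVB samples), Cldn3 by 0.97 (p = 7.5e-05, 10 of 12), Ocln by 0.90 (p = 5e-05, 5 of 12) and Cldn7 by 0.86 (p = 0.000475, 3 of 12), each by exact permutation. On the same scale Cldn5 differed by -4.30 (12 of 12 PyMT samples below all FVB samples) and Tjp1 by -1.17 (9 of 12), both with the smallest possible p. The marker mean itself was 11.33 in PyMT and 10.26 in FVB. A gene at like levels in both genotypes, such as Tjp1, therefore takes a negative value on this scale. Tjp3 differed by -0.48 (exact permutation p = 0.0383, over 0.05 on leaving out 12 of the 24 samples in turn), Cldn8 by -0.34 (p = 0.22) and Cldn4 by -0.10 (p = 0.673).

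Which markers stand for the epithelium decided part of this. Against Epcam and Cdh1 alone, Cldn1 was still higher, by 0.97 (exact permutation p = 0.000225), whereas the differences were 0.29 for Cldn3 (p = 0.163), 0.18 for Cldn7 (p = 0.293) and 0.22 for Ocln (p = 0.208). On that scale Cldn4 was lower in PyMT, at -0.78 (exact permutation p = 0.00813), and so were Cldn8 at -1.02 (p = 0.00174), Tjp1 at -1.85 and Tjp3 at -1.17, the last 2 with the smallest possible p. Against Krt8 and Krt18 alone, Cldn1 was higher by 1.03 (exact permutation p = 8.75e-05), Cldn3, Cldn7 and Ocln differed by 0.36, 0.25 and 0.28 (p = 0.157, 0.281 and 0.179), and Cldn4, Cldn8, Tjp1 and Tjp3 by -0.71, -0.96, -1.79 and -1.10.

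**Figure D3:**
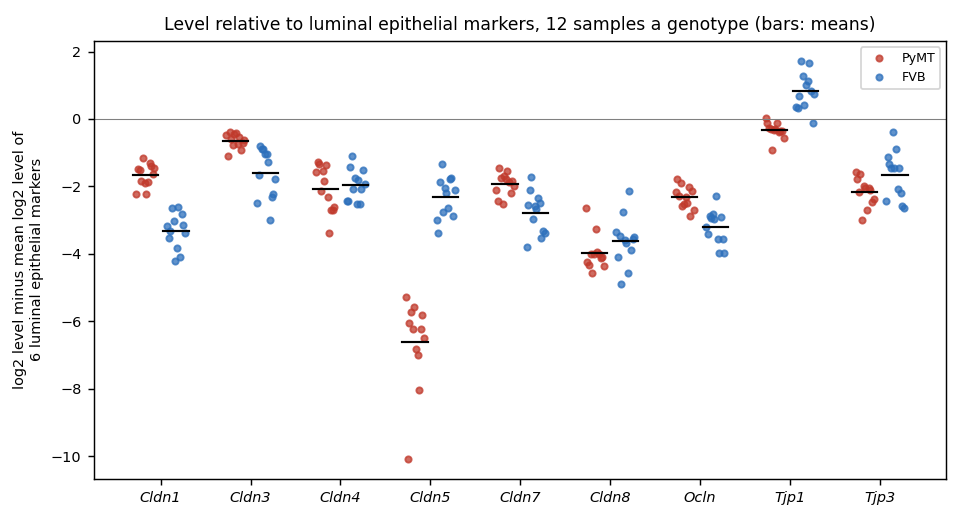
Log2 level of each gene minus the mean log2 level of 6 luminal epithelial markers in the same sample (points, 12 per genotype, PyMT red, FVB blue) with genotype means as bars. All 12 PyMT points of Cldn1 lie above the FVB points, all 12 of Cldn5 lie below, and those of Cldn4 and Cldn8 overlap with FVB.

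Per kilobase of exon, the order of the members in PyMT was Cldn3 (1331 ± 280.1 normalized counts per kb, SD, n = 12), Cldn4 (379.5 ± 180.4), Cldn7 (354 ± 80.8), Tjp1 (278 ± 29.0), Cldn1 (266 ± 109), Tjp3 (193 ± 35.4), Ocln (124 ± 20.4), Cldn8 (72.9 ± 28.1) and Cldn5 (23.5 ± 12.6). Neighbours from Cldn4 down to Tjp3 differed by less than the larger of their SDs. In FVB the order was Cldn3 (384 ± 211), Tjp1 (302 ± 54.8), Cldn4 (201 ± 121), Cldn5 (187 ± 74.8), Tjp3 (148 ± 85.6), Cldn7 (101 ± 47.2), Cldn8 (48.7 ± 23.9), Cldn1 (42.3 ± 19.8) and Ocln (35.4 ± 15.8), and neighbours differed by less than the larger of their SDs, Cldn7 and Cldn8 excepted.

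Claudins were taken here by their symbol in GENCODE M1, which gave 24 genes. Their summed level was 2843 ± 535 normalized counts per kb in PyMT and 1299 ± 429.6 in FVB (SD, n = 12), with no overlap between 2341 to 4153 and 647 to 2024. Cldn3 made up 46.7 ± 4.21% of that sum in PyMT and 27.7 ± 9.66% in FVB. Cldn7 made up 12.5% and 7.6%, Cldn1 9.21% and 3.27%, and Cldn4 13.1% and 14.6%. Cldn5 made up 0.82% in PyMT and 14.6% in FVB, where it was as large a share as Cldn4. Cldn8 made up 2.64% and 3.89%. These shares are descriptions, since a rise of some claudins lowers the share of the others.

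**Figure D4:**
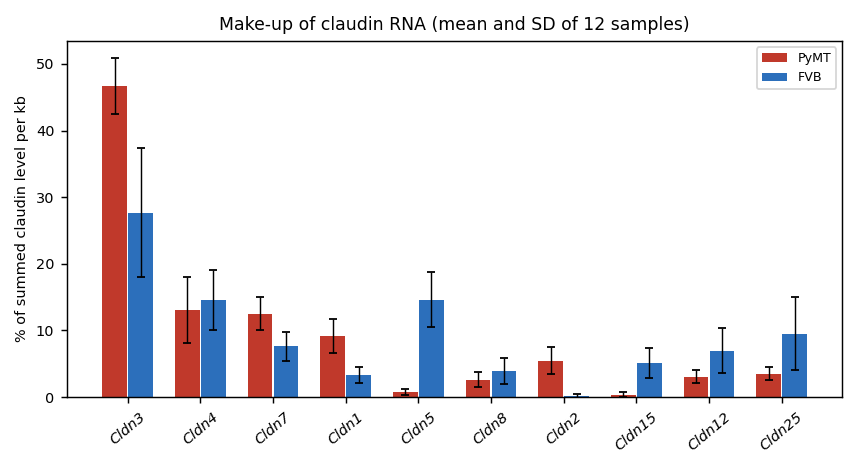
Share of the summed claudin level per kilobase of exon (bars, percent, mean of 12 samples with SD) for 10 genes with a claudin symbol, PyMT in red and FVB in blue. Cldn3 takes 46.7% in PyMT and 27.7% in FVB, Cldn5 0.82% and 14.6%, and Cldn2 5.43% and 0.16%.

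Of the 18 other genes with a claudin symbol, 7 passed the filter, and their median log2 fold change with the weeks pooled was 0.10. Of these, 1 was called higher and 2 lower, beside 8.51% of all genes higher and 17.2% lower. Cldn2, which forms cation and water channels in leaky epithelia, had 284 to 754 normalized counts in PyMT and 0 to 30.3 in FVB, where 5 of 12 samples were at 0. Its log2 fold change was 6.42 ± 0.54 (adjusted p = 6.46e-10, edgeR's quasi-likelihood test), and it was called at every week, although the week 8 call was lost without PyMT week 8 replicate 1 (5.25, adjusted p = 0.0555). A fold against levels this near 0 depends on the prior count of the fit. Cldn15 was lower at -2.57 ± 0.50, with 0 to 53.5 normalized counts in PyMT and 52.5 to 265.5 in FVB, and was called at week 12 among the single weeks, a call lost in a fit of all 24 samples (-2.73, adjusted p = 0.0801). Cldn6, a claudin of embryonic epithelium, was lower at -2.48 ± 0.92 (adjusted p = 0.0271), also called at week 12, and at low counts (medians 3.09 and 26.5). Its pooled call was lost without PyMT week 12 replicate 2 or 3 (adjusted p = 0.0554 and 0.0561), and its week 12 call without any PyMT sample of that week or FVB replicate 2 (adjusted p = 0.0575 to 0.0712). The claudins next to members were at or near 0 in most samples. Cldn13, 29600 bp from Cldn4, and Cldn16, 91294 bp from Cldn1, were listed at 0 in all 24 samples, and Cldn17, 53850 bp from Cldn8, was at 0 in 9 of 12 PyMT and 11 of 12 FVB samples, with at most 26.1 normalized counts in PyMT and 2.26 in FVB.

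The 33 other tight junction genes split. With the weeks pooled, 9 were called higher and 6 lower, beside 8.51% and 17.2% of all genes, and their median log2 fold change was 0.17. The largest increases were Marveld3 (1.92 ± 0.21), a relative of occludin, Crb3 (1.84 ± 0.33), a polarity protein of the apical membrane, Ildr1 (1.67 ± 0.29), an angulin of 3-cell contacts, and Prkcz (1.60 ± 0.22), a polarity kinase. The largest decreases were Esam (-2.67 ± 0.23), an adhesion molecule of endothelium, Jam3 (-2.58 ± 0.44) and Magi2 (-2.49 ± 0.75), which are junction adhesion and scaffold proteins, and Mpdz (-1.97 ± 0.12), a multi-PDZ scaffold. Marveld3 had 449.9 to 1069 normalized counts in PyMT and 77.0 to 304 in FVB. Esam had 27.8 to 197 in PyMT with a median of 107 and a median of 663 in FVB. Jam3 and Magi2 were at low counts. Jam3 had 0 to 38.4 in PyMT and 62.6 to 190.3 in FVB. Magi2 had 0 to 25.8 in PyMT and 0 to 131.4 in FVB, with overlap. By week, 2, 6, 9 and 10 of the 33 were called higher and 3, 4, 4 and 7 lower at weeks 6, 8, 10 and 12, beside 3.58%, 3.57%, 4.83% and 7.75% of all genes higher and 6.46%, 6.37%, 9.09% and 13% lower. The totals called depended on single samples. At week 6 the 5 became 2 without PyMT replicate 1, 3 without PyMT replicate 3 and 8 without FVB replicate 3. At week 8 the 10 became 5 without PyMT replicate 1 or 2 or FVB replicate 2, and at week 10 the 13 became 7 and 8 without PyMT replicate 2 and 3.

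Of 13 transcription factors known to act on junction genes, 12 were tested, and Zeb1 was listed at 0 in all 24 samples. Whether reads of Zeb1 were assigned to another identifier cannot be told from the counts, so this 0 is not read as absence of its RNA. With the weeks pooled, 3 were called higher and 4 lower, beside 8.51% and 17.2% of all genes, with a median log2 fold change of 0.09. Higher in PyMT were the epithelial factors Ehf (2.08 ± 0.30), Grhl2 (1.43 ± 0.21) and Grhl1 (1.16 ± 0.17). Lower were Twist1 (-2.80 ± 0.34), Zeb2 (-2.41 ± 0.17), Snai2 (-2.32 ± 0.42) and Snai1 (-2.11 ± 0.71), which repress claudin and cadherin genes and are expressed in stromal cells of many tissues. Snai1 was at low counts (medians 10.2 in PyMT and 49.1 in FVB), and its genotypes overlapped. Fibroblast markers (5 of 5 lower, summed level 15560 to 34260 against 40190 to 144700) and adipocyte markers (8 of 8 lower, 1014 to 15460 against 46490 to 129900) moved with these 4 genes, and their part in the result was not tested.

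**Figure D5:**
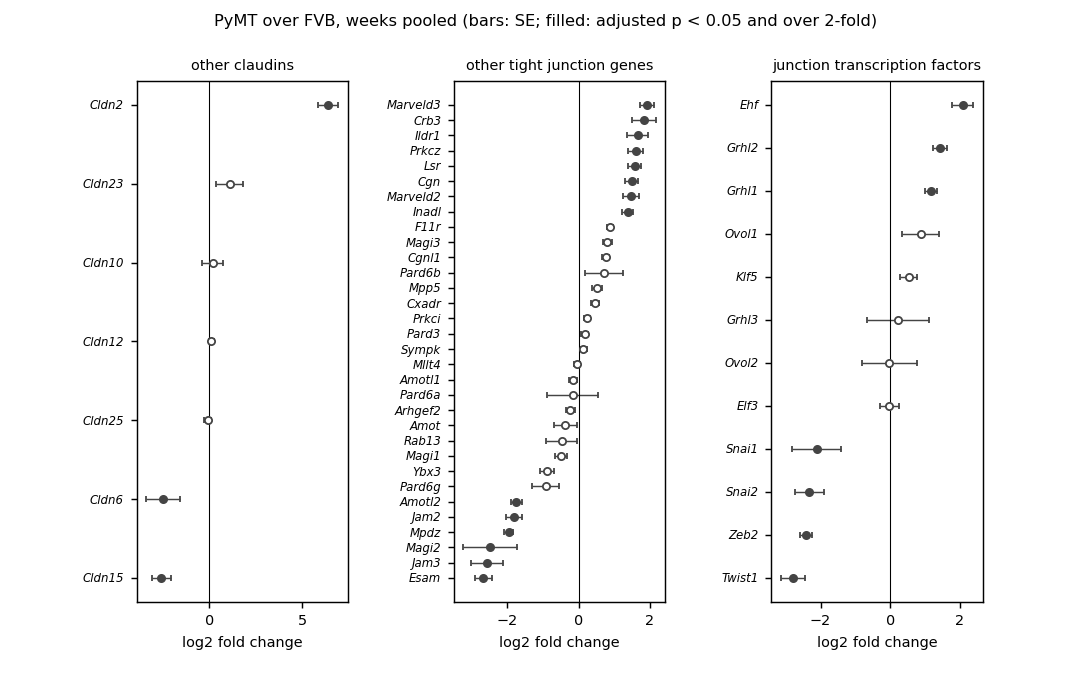
Log2 fold change of PyMT over FVB with the weeks pooled (points) and its standard error (bars) for the tested other claudins, other tight junction genes and junction transcription factors; filled points were called, and 1 tight junction gene is not drawn. Cldn2 stands alone at 6.42 among the claudins, and the tight junction genes run from Esam at -2.67 to Marveld3 at 1.92.

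The genes most like each member over the 24 samples were sought among all tested genes by Pearson's r of log2 levels, as a description in which the gap between genotypes and the libraries are shared by all points. Cldn1 was most like Map3k1 (r = 0.967), Epcam (0.959) and Papss1 (0.955). Cldn3 was most like Ptk7 (0.981) and Ptprf (0.971). Cldn7 was most like Ap2b1 (0.956), Ocln like Mboat2 (0.965) and Cldn5 like Apcdd1 (0.939). The members without a called pooled difference had weaker best matches, which were Kdm1a for Cldn4 (0.815), Gm9000 for Cldn8 (0.888), Sox4 for Tjp3 (0.871) and Map4k4 for Tjp1 (0.772).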

How the data were processed

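RNA of mammary tissue was measured by RNA-seq of 12 PyMT and 12 FVB samples. Per the labels and the study's methods, the authors removed adapters, used GSNAP for alignment to mm9 and HTSeq for counting, and deposited unnormalized counts per Ensembl gene. Symbols, mm9 positions and exon lengths came from GENCODE M1, which held 37205 of the 37991 genes, and promoters from RefSeq (GRCm38.p6). Every count column belonged to 1 sample.

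Genes reaching a CPM of 1 in 12 or more samples were tested in R 4.3.3 with edgeR 4.0.16 (TMM scaling, quasi-likelihood test). Each week was fitted alone. The pooled difference, which had week as a covariate, and changes between weeks used all 24 samples. Calls needed a log2 fold change beyond 1 and an adjusted p under 0.05, or the adjusted p alone for a change of a difference. The SE is the size of the log2 fold change divided by the root of edgeR's F. Normalized counts used the size factors of DESeq2 1.42.0. Other steps used Python 3.11.15, NumPy 2.4.6, SciPy 1.17.1, pandas 2.3.3 and matplotlib 3.10.9. The fit was tested on simulated data.

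Named were all 9 members, the 4 largest called increases and decreases in each list of related genes, and claudins next to members. Of the 3 genes most like each member, 1 or more were named. The values of 1 gene are not reported here. Members and lists were chosen with earlier results of these data known. For the levels relative to the luminal markers, the planned test adjusted the p-values by Benjamini-Hochberg over the 9 members. After the results had been seen this was changed to unadjusted p-values, because an adjustment over a list chosen with results known is not independent. Under both, 7 of 9 members had p under 0.05, and Tjp3, the nearest to that limit, lost it in more of the alternatives when adjusted.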

Additional observations from a re-analysis of the deposited data

How the results depend on the processing

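The alternatives were RLE size factors, scaling by library total only, no filter on low counts, a replicate block, a fit of all 24 samples, DESeq2's Wald test, other marker lists, a pseudocount of 10 and each sample left out in turn. Leaving out the 13 libraries of coarse low counts and the 4 muscle-rich libraries was chosen after seeing the data. Without those 13 the pooled difference between genotypes rests on weeks 8 and 12. With the weeks pooled, 5 to 6 members were called over 31 alternatives, and at week 12 5 to 6 over 12. At week 6 the 3 called members became 5 without the filter and 6 with DESeq2's Wald test, and were 2 to 4 with a sample left out. At week 8 the 5 became 6 without the filter, 4 in a fit of all 24 samples and 1 to 5 with a sample left out. At week 10 the 5 became 3 with library total only and 2 to 6 with a sample left out. The cause of these changes was not tested. Further calls at week 6 were Cldn3 and Cldn5 without the filter, Cldn5 and Cldn7 in a fit of all 24 samples and all 3 with DESeq2's Wald test, and at week 12 Tjp3 with library total only and without the filter. Without the filter, 5 other claudins were called with the weeks pooled in place of 3, and at week 6 DESeq2's Wald test called 11 other tight junction genes in place of 5. The counts between weeks stayed at 0 in the alternatives run, and 6 to 7 members differed relative to the luminal markers. Which members these were depended on the markers. Against Epcam and Cdh1 alone, or Krt8 and Krt18 alone, Cldn3, Cldn7 and Ocln dropped out. Cldn4 and Cldn8 came in as lower in PyMT.

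Changes of sign were found among members that were not called. Scaling by library total only gave 0.0943 for Cldn4 at week 12, and 0.22, 0.27 and 0.17 for Tjp1 at weeks 10, 12 and pooled. Tjp3 at week 8 was -0.0042 with RLE size factors and -0.0039 with DESeq2's Wald test. With a sample left out, the log2 fold change ran from -0.48 to 0.58 for Cldn4 at week 12, from -0.38 to 0.83 for Cldn4 in FVB week 12 against week 6, from -0.12 to 0.77 and from -0.13 to 0.70 for Cldn8 at weeks 8 and 12, from -0.0489 to 0.26, from -0.20 to 0.0879 and from -0.14 to 0.0476 for Tjp1 at weeks 6, 10 and 12, from -0.0087 to 0.67 and from -0.38 to 0.42 for Tjp3 at weeks 6 and 8, and from -0.17 to 0.0256 for Cldn4 relative to the luminal markers.

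No source pairs samples by replicate number across genotypes. The deviations of same-numbered samples correlated at -0.03 to 0.18, and those of differently numbered samples at -0.13 to 0.09. At weeks 6, 8 and 10 the highest value was that of a same-numbered pair (0.14, 0.18 and 0.16). Whether the number stands for anything shared was not tested. With a replicate block, Cldn4 at week 12 was 0.0834, Cldn4 at week 10 was also called (1.43, adjusted p = 0.0452 by edgeR), which made 6 members there, and the counts of 3, 5, 5 and 5 members at weeks 6, 8, 12 and pooled did not move.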
